A study of Gallus gallus with 16 samples.

Results

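The 34 genes described here mark germ cells or act in meiosis. They were found by symbol in a table of 14074 genes measured in chicken (Gallus gallus) gonads, where each of the 34 symbols had 1 entry. They were split by role into germ cell identity and RNA granules (14 genes), pluripotency and signalling (4), meiotic entry and the chromosome axis (8), and recombination (8). DDX4 and TDRD7 lie on the Z chromosome, which males (ZZ) carry as a pair and females (ZW) carry once.

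Gonads were taken from embryos at embryonic day 19, shortly before hatching, and profiled by SuperSAGE. That method sequences 1 short tag per transcript next to an NlaIII site near its 3' end, so a level needs no length correction. Females and males were each studied under 4 conditions: tributyltin, sesame oil, methyltestosterone and no substance. Tributyltin is an organotin and was dosed at 10 pg of tin for each g of body weight. Methyltestosterone, an androgen made by synthesis, was dosed at 30 pg for each g. The labels describe 16 libraries, 1 each for the left and the right gonad, with RNA of 10 individuals per group. The table gives 1 column per sex and condition and names no side, so left ovaries, which develop, and right ovaries, which regress in birds, are not separated. The labels state no vehicle for tributyltin or methyltestosterone. Values are tag counts scaled to a common column total (RPM), and each is a single pooled value with no replicate.

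Germ cells of birds reach the gonad as primordial germ cells and are kept in that state by RNA-binding proteins, by small RNAs bound to PIWI proteins and by pluripotency factors. In the left ovary of a chick embryo they enter meiosis before hatching, under retinoic acid and STRA8. There the chromosome axis (cohesins, HORMAD proteins, SYCP2 and SYCP3) is built and joined by SYCP1 into the synaptonemal complex, on which recombination proceeds. In the testis germ cells stay out of meiosis until after hatching.

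Depth differed widely between columns and set what could be seen of weak genes. Tag totals were 388795, 314810, 3154653 and 2301752 in tributyltin, oil, methyltestosterone and untreated females, and 508095, 492619, 6669049 and 1953798 in males of the same conditions. A floor of 3 tags was therefore 7.72 RPM in tributyltin females, 9.53 in oil females, 5.90 in tributyltin males and 6.09 in oil males, against 0.450 to 1.54 RPM in the other 4 columns. Intervals below are exact 95% Poisson or binomial intervals on tags and cover counting error only. Of the 34 genes 18 had a tag in every column and 14 reached 3 tags in every column. The label was checked against 6 defining germ cell genes, and most of them did not go with it. Over all columns DDX4 had 4 tags, PIWIL1 19, DND1 27, NANOG 30 and POUV none. Only DAZL was well covered, with 603 tags and a value above its floor in all 8 columns. The reason for the low values of the others was not tested.

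**Figure D1:**
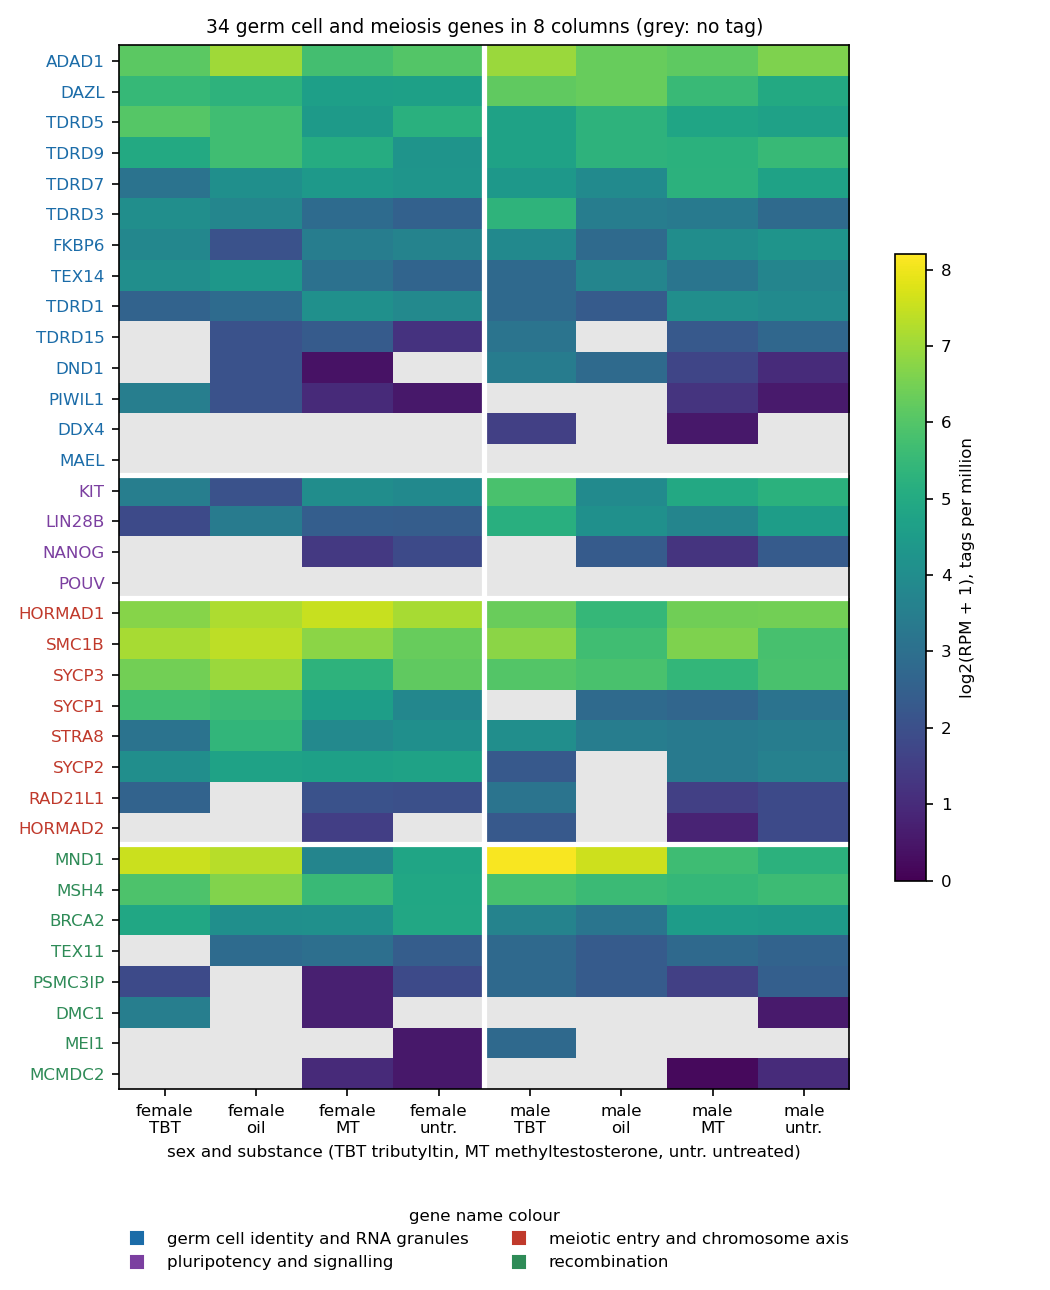
Levels of the 34 genes as log2(RPM + 1), 1 row per gene and 1 column per sex and condition, with females on the left, and with grey where no tag was counted. Rows are grouped by role and ordered by mean level. MAEL and POUV are grey throughout, and the oil and tributyltin columns hold most of the other grey cells.

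Between the sexes, the summed level of axis genes was higher in females and that of pluripotency and signalling genes lower, while of single genes only KIT was called. Over the 8 axis genes the summed level was 409, 550, 395 and 344 RPM in tributyltin, oil, methyltestosterone and untreated females, against 281, 166, 250.1 and 234 RPM in males. The lowest female sum was thus above the highest male sum. HORMAD1, SMC1B and SYCP3 made up most of each of these sums. Over the 4 pluripotency and signalling genes the sums were 12.9, 12.7, 21.2 and 20.9 RPM in females and 92.5, 34.5, 43.6 and 63.5 RPM in males, with no overlap in the opposite direction. Most of each pluripotency and signalling sum was KIT and LIN28B, since NANOG reached at most 4.095 RPM and POUV had no tag. The identity and RNA granule genes summed to 196 to 337 RPM in females and 274 to 352 RPM in males, and these ranges overlapped. Recombination genes summed to 84.0 to 285 RPM in females and 118 to 360 RPM in males, which overlapped as well. The 34 genes together summed to 983, 1178.5, 697 and 655 RPM in females and 1086, 737, 690.35 and 697 RPM in males, also with overlap. Within a column, the axis sum was 1.49, 1.63, 2.01 and 1.75 times the identity sum in tributyltin, oil, methyltestosterone and untreated females, against 0.799, 0.586, 0.912 and 0.831 times in males. In whole gonads fewer germ cells and less RNA per germ cell cannot be told apart.

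**Figure D2:**
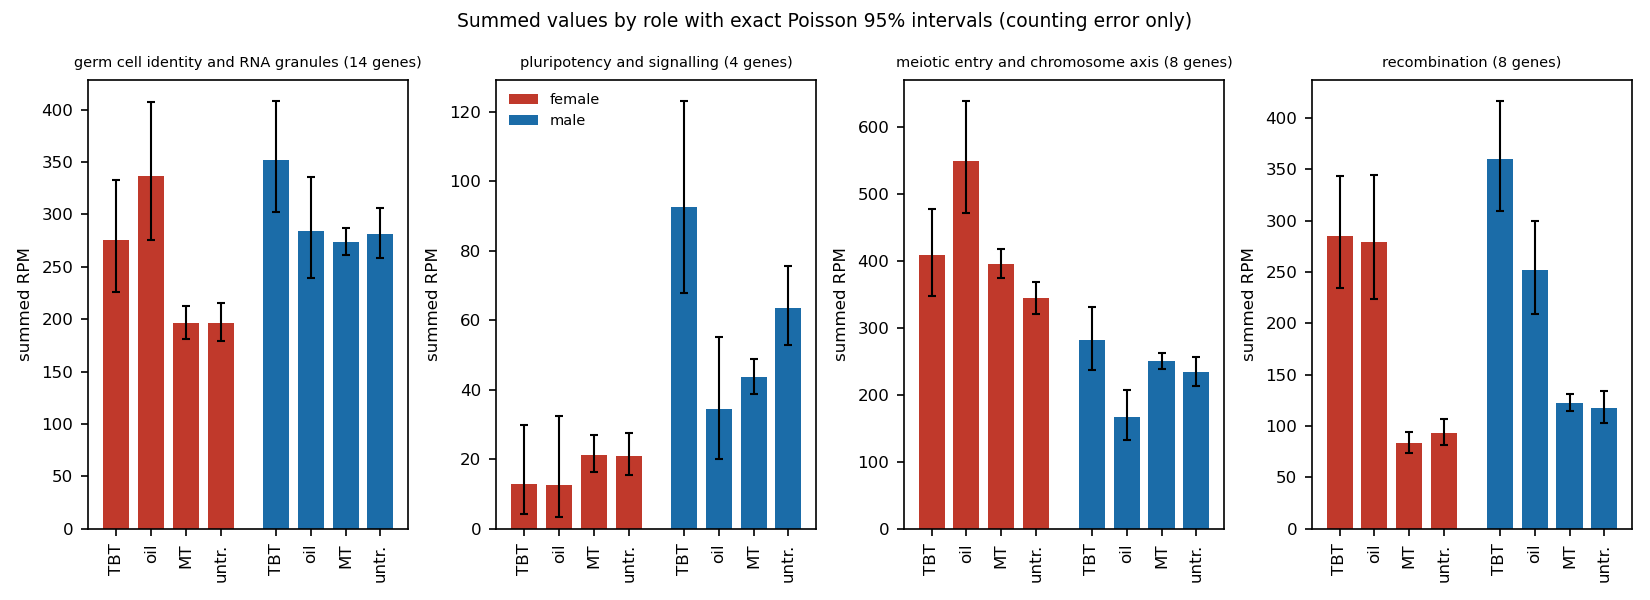
Summed RPM of the genes of each role in 4 panels, 1 bar per column with females in red on the left and males in blue, and with exact Poisson 95% intervals. Axis genes sum to 344 to 550 RPM in females and 166 to 281 RPM in males, while pluripotency and signalling genes sum to 12.7 to 21.2 RPM in females and 34.5 to 92.5 RPM in males.

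The sex difference was tested for the 26 genes that reached 1 RPM in 4 or more columns. limma was fitted to log2(RPM + 1) of all tested genes with sex and substance as terms, and p-values were adjusted over all 9280 tested genes. Since no group has a replicate, they measure the spread between columns around that model. At an adjusted p under 0.05, 1 of 26 genes was lower in females (KIT), against 2.28% of all tested genes, and 0 of 26 were higher, against 3.67%. At an unadjusted p under 0.05, 4 genes were higher in females (SYCP1, SYCP2, HORMAD1 and SMC1B), against 10.7% of all tested genes. On the same criterion 5 were lower (KIT, LIN28B, MND1, DND1 and DAZL), against 7.77%. In all 4 conditions 4 of the 26 genes (15.4%) were higher in females, close to the 14.5% of all tested genes. They were the same 4 genes, SYCP1, SYCP2, SMC1B and HORMAD1. In all 4 conditions 7 genes (26.9%) were lower in females, against 10.8% of all tested genes. Besides the 5 just named these were FKBP6 and PSMC3IP. The 4 female columns all lay above the 4 male columns for 3 genes, SYCP1, SYCP2 and HORMAD1 (11.5%, against 5.27%), and all below for LIN28B (3.85%, against 3.53%).

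SYCP1, the transverse filament of the synaptonemal complex (chromosome 26), was at 51.4, 47.6, 23.5 and 13.0 RPM in tributyltin, oil, methyltestosterone and untreated females. In males of the same conditions it was at 0, 6.09, 5.55 and 7.68 RPM. Every female value was above every male value, and the gap was widest in the oil and tributyltin columns. The female-to-male ratio was 4.23 (2.81 to 6.45) after methyltestosterone and 7.82 (2.21 to 42.2) after oil, where males had 3 tags. After tributyltin, with 20 tags in females and 0 in males, SYCP1 was at least 8.71-fold higher in females when males were set at the floor of 3 tags, and the lower counting limit of the ratio was 6.45. In untreated gonads the ratio was 1.70, and its interval of 0.885 to 3.40 included 1. The log2 difference of females to males was 2.77 (SE 0.73), and it missed the threshold (limma adjusted p = 0.0540).

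SYCP2, an axis protein (chromosome 20), was at 15.4, 25.4, 24.1 and 25.2 RPM in females and at 3.94, 0, 9.15 and 11.3 RPM in males, in the same order of conditions. The sexes did not overlap, but the tributyltin and oil male values were 2 and 0 tags, both under the floors. After tributyltin the female-to-male ratio was 3.92 (0.701 to 39.7), and its interval included 1. After oil the lower counting limit of the ratio was 2.67. The ratio was 2.63 (1.86 to 3.75) after methyltestosterone and 2.24 (1.35 to 3.84) in untreated gonads. Females exceeded males by 2.21 on the log2 scale (SE 0.65, limma adjusted p = 0.0849). Its partner SYCP3 was at 87.45, 124, 38.4 and 71.7 RPM in females and 63.0, 56.8, 41.8 and 56.8 RPM in males. Here the sexes overlapped and the methyltestosterone pair ran the other way, so the 2 partners did not show the same pattern (SYCP3 log2 0.45, SE 0.26, limma adjusted p = 0.423).

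HORMAD1, which loads onto unsynapsed axes (chromosome 25), was at 103, 146, 183 and 137 RPM in females and at 78.7, 42.6, 85.2 and 87.5 RPM in males. The lowest female value was above the highest male value. On the log2 scale females were 0.97 above males (SE 0.25, limma adjusted p = 0.0516), the smallest adjusted p after that of KIT. SMC1B, the meiotic cohesin subunit (chromosome 1), was at 139, 165, 107 and 77.8 RPM in females and 108, 50.7, 96.6 and 55.3 RPM in males. It was higher in females in each condition although the ranges overlapped (log2 0.67, SE 0.27, limma adjusted p = 0.214). The largest SMC1B ratio of females to males was 3.25 (1.98 to 5.47) after oil, and the smallest was 1.11 (0.973 to 1.27) after methyltestosterone.

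STRA8, the factor that starts the meiotic programme under retinoic acid in mouse and chick, was at 7.72, 41.3, 13.6 and 16.1 RPM in females and at 15.7, 10.15, 9.15 and 10.2 RPM in males. Females were higher in 3 of 4 conditions and lower after tributyltin, where the female value rested on 3 tags. On the log2 scale females were 0.53 above males (SE 0.53, limma adjusted p = 0.655). The cohesin subunit RAD21L1 was at 5.14, 0, 3.17 and 3.04 RPM in females and 7.87, 0, 1.95 and 2.56 RPM in males, with no side favoured. HORMAD2, which did not reach the filter, was at 0, 0, 1.90 and 0 RPM in females and 3.94, 0, 0.750 and 2.56 RPM in males. In untreated gonads it had 0 tags in females and 5 in males, an interval of the ratio below 1. All 7 tested axis genes had a positive log2 difference, with a median of 0.67 against 0.06 over all tested genes, but the signs of RAD21L1 and STRA8 turned under some alternative settings.

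**Figure D3:**
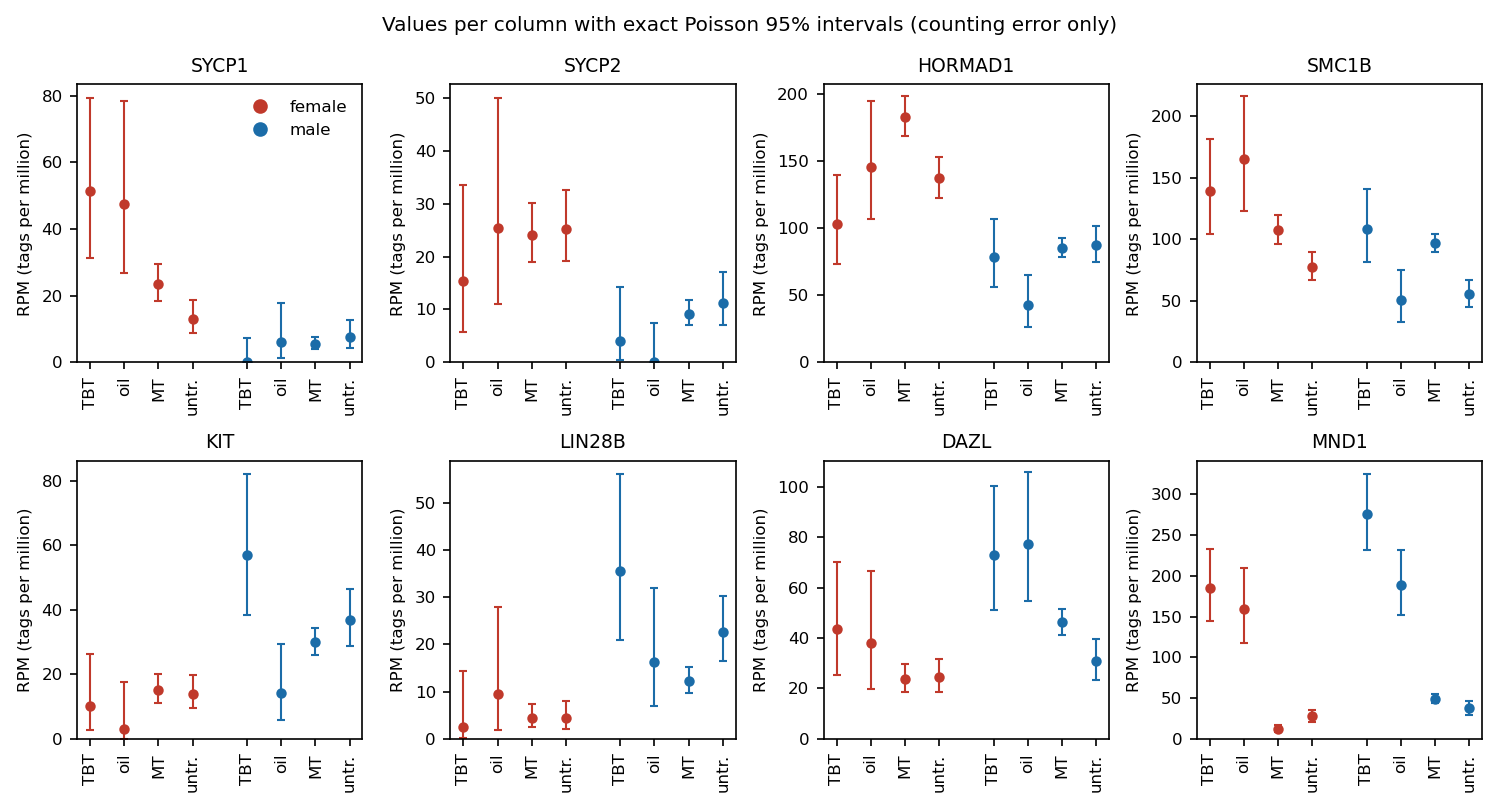
RPM per column of 8 genes with exact Poisson 95% intervals, females in red on the left and males in blue on the right, each in the order tributyltin, oil, methyltestosterone and untreated. The 4 genes of the upper row are higher in females in every condition and the 4 of the lower row lower in every condition, and MND1 is also higher in all 4 oil and tributyltin columns.

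Of the pluripotency and signalling genes, KIT and LIN28B were lower in females in each condition. KIT, the receptor of stem cell factor that primordial germ cells need to survive and that other cells such as blood precursors also carry (chromosome 4), was at 10.3, 3.18, 15.2 and 13.9 RPM in females. In males it was at 57.1, 14.2, 30.0 and 36.9 RPM. Males after oil lay just within the female range, and the other 3 male columns lay above it. The log2 difference of females to males was -1.63 (SE 0.42, limma adjusted p = 0.0497). The call sits at the threshold: it was lost when any 1 of the 8 columns was left out, with adjusted p between 0.0639 and 0.224 and the log2 difference between -1.86 and -1.38.

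LIN28B, an RNA-binding repressor of let-7 microRNAs (chromosome 3), was at 2.57, 9.53, 4.44 and 4.345 RPM in females and at 35.4, 16.2, 12.3 and 22.5 RPM in males. The lowest male value was above the highest female value (log2 -1.87, SE 0.56, limma adjusted p = 0.0873). That female value, after oil, was 3 tags, and its interval of 1.97 to 27.8 RPM covered the lowest male value. The tributyltin female value was 1 tag, under the floor. In untreated gonads the ratio of females to males was 0.193 (0.0866 to 0.389). It was 0.587 after oil, where its interval included 1, and the interval was below 1 after tributyltin and methyltestosterone. NANOG, a pluripotency factor, had at most 9 tags in any column, at 0 to 2.61 RPM in females and 0 to 4.095 RPM in males (limma adjusted p = 0.598). POUV, the chicken relative of OCT4, had no tag in 8 columns.

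Among germ cell identity genes, DAZL, DND1 and FKBP6 were lower in females in each condition, and none of the 11 tested was called. FKBP6 was at 12.9, 3.18, 10.1 and 11.7 RPM in females and 13.8, 6.09, 15.1 and 17.9 RPM in males. Its female-to-male ratio had an interval that included 1 in each condition. DAZL, an RNA-binding protein that licenses germ cells for gamete formation (chromosome 2), was at 43.7, 38.1, 23.8 and 24.3 RPM in females and 72.8, 77.1, 46.2 and 30.7 RPM in males. Only the untreated male column fell within the female range (log2 -0.74, SE 0.28, limma adjusted p = 0.175). The interval of the DAZL sex ratio included 1 after tributyltin and in untreated gonads. DND1, which shields germ cell messages from microRNAs in zebrafish, was at 0, 3.18, 0.317 and 0 RPM in females and 9.84, 6.09, 2.25 and 1.02 RPM in males. With 27 tags in all, most of these values were near the floors (log2 -1.63, SE 0.61, limma adjusted p = 0.174). ADAD1, an RNA-binding protein of male germ cells in mouse, was the most abundant identity gene at 52.3 to 130.2 RPM in females and 70.2 to 124 RPM in males.

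The Tudor proteins, which assemble the granules where PIWI proteins work, did not part the sexes. TDRD9 was at 30.9, 50.8, 33.0 and 17.8 RPM in females and 25.6, 38.6, 36.7 and 45.0 RPM in males. TDRD5 was at 64.3, 50.8, 21.2 and 35.6 RPM in females and 25.6, 38.6, 27.4 and 25.1 RPM in males. Both genes overlapped between the sexes, with limma adjusted p = 0.822 for TDRD9 and 0.544 for TDRD5. TDRD7, on Z, was at 7.72 to 20.3 RPM in females and 14.2 to 37.5 RPM in males (log2 -0.60, SE 0.41, limma adjusted p = 0.497). TDRD1, TDRD3, TDRD15, FKBP6 and TEX14 had limma adjusted p-values between 0.637 and 0.946. PIWIL1, the PIWI protein itself, had 19 tags over all columns, and MAEL had none. Over the 11 tested identity genes the median log2 difference was -0.45.

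Recombination genes were split. MND1, which forms a dimer with PSMC3IP that acts in meiotic strand invasion, was at 185, 159, 12.4 and 27.4 RPM in females and 276, 189, 48.9 and 37.4 RPM in males. Females were lower in each condition, and the methyltestosterone pair was farthest apart with a ratio of 0.253 (0.177 to 0.353). After oil and in untreated gonads the interval of the ratio included 1. The fit gave a log2 value of -0.79 for females over males (SE 0.29, limma adjusted p = 0.174). PSMC3IP was also lower in each condition, at 0 to 2.61 RPM in females and 1.95 to 5.90 RPM in males (limma adjusted p = 0.287). It had 36 tags in all, and the interval of its sex ratio included 1 in each condition. MSH4, a crossover protein, was at 59.2, 98.5, 46.0 and 28.7 RPM in females and 55.1, 46.7, 43.5 and 48.1 RPM in males, with overlap (limma adjusted p = 0.877). BRCA2, which loads recombinases and also serves DNA repair in body cells, was at 15.9 to 29.5 RPM in females and 8.12 to 22.0 RPM in males (limma adjusted p = 0.560). DMC1, the meiotic recombinase, had 7 tags in all, 4 of them in tributyltin females, where it was at 10.3 RPM (2.80 to 26.3). MEI1 and MCMDC2 had 4 and 7 tags. TEX11, a crossover protein needed by male mice, was at 0 to 6.97 RPM in females and 4.06 to 5.998 RPM in males (limma adjusted p = 0.712).

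**Figure D4:**
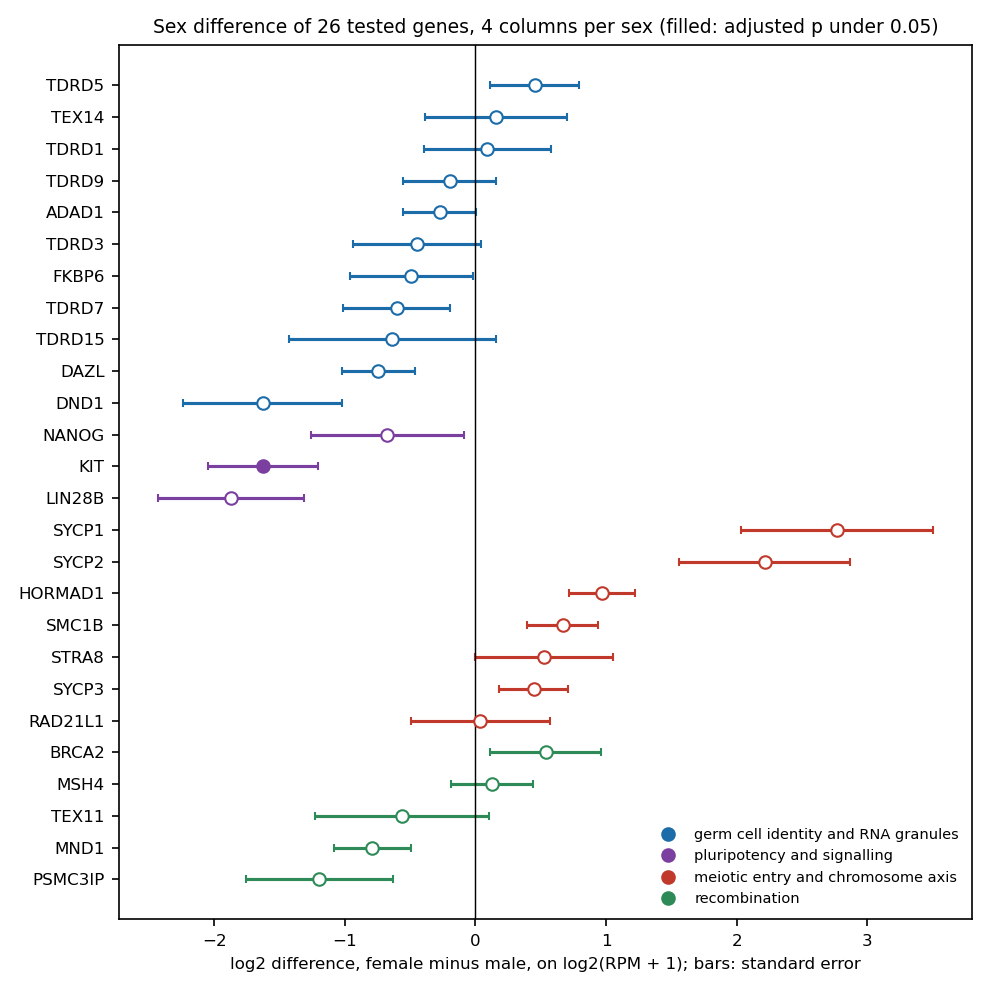
Log2 difference of females to males on log2(RPM + 1) with its standard error for the 26 tested genes, coloured by role, with a filled point where the adjusted p is under 0.05. KIT is the 1 filled point, and the 7 axis genes lie between 0.04 and 2.77 on the female side.

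Other genes of these pathways were taken from lists of known members. Of 30 further germ cell genes 17 had an entry under their symbol, and 12 were tested. None of the 12 was lower in females, against 2.28% of all tested genes, and 2 were higher, against 3.67%. These were NANOS1, a translational repressor, and CXCL12, the chemokine that guides germ cells and acts on many other cells. NANOS1 was at 5.14, 9.53, 180 and 86.9 RPM in females and at 0, 4.06, 52.6 and 26.6 RPM in males (log2 1.77, SE 0.43, limma adjusted p = 0.0383). RNF17, a Tudor protein of germ cells, had 136 to 215 RPM in females and 84.6 to 133 RPM in males. It was not called (log2 0.58, SE 0.20, limma adjusted p = 0.145), and 5.27% of all tested genes likewise had every female value above every male value. Of 48 further meiosis genes only 22 had an entry and 17 were tested, so the list covers part of the pathway. None of the 17 passed, against the same shares, with limma adjusted p of at least 0.113. At an unadjusted p under 0.05, 1 gene was lower in females, against 7.77% of all tested genes. The 22 genes with an entry summed to 469 to 584 RPM in females and 469 to 614 RPM in males, so the sexes overlapped. Of 17 genes of retinoic acid supply and response 13 had an entry, and 10 were tested. Of these 10, 3 were higher in females (STRA6, DHRS3 and RXRG), against 3.67% of all tested genes, and 1 lower (ALDH1A1), against 2.28%. The RXRG call sits at the threshold (log2 2.12, SE 0.55, limma adjusted p = 0.0497). RXRG was at 2.57, 6.35, 10.5 and 3.91 RPM in females and 0, 0, 1.05 and 1.02 RPM in males. Its tributyltin and oil female values were under the floors. ALDH1A1, a Z-linked enzyme that makes retinoic acid, was at 0 to 7.82 RPM in females and 33.4 to 141 RPM in males. ALDH1A2, of the same list, was at 137 to 168 RPM in females and 75.1 to 218 RPM in males. Its level did not part the sexes (log2 -0.08, SE 0.28, limma adjusted p = 0.921). CYP26B1, which breaks retinoic acid down, had no tag in females. In males it was at 7.87 RPM after tributyltin, at 0.3 RPM after methyltestosterone and at 0 in the oil and untreated columns. Its relative CYP26A1 was at 5.14, 0, 10.8 and 7.82 RPM in females and 0, 0, 1.50 and 1.02 RPM in males. CYP26A1 thus leaned to females without being called (log2 1.74, SE 0.60, limma adjusted p = 0.140). CYP26B1 did not reach the filter, and its few tags give no direction by sex. No gene of the proliferation list (14 tested) passed, against the same shares. At an unadjusted p under 0.05, 3 of them were lower in females, against 7.77% of all tested genes. The 17 genes of that list with an entry summed to 486 to 621 RPM in females and 567 to 782 RPM in males.

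Markers of other cells moved with sex as well, and their part in the differences above was not tested. Genes of the oocyte list summed to 102 to 590 RPM in females and 9.84 to 43.2 RPM in males. Most of this was the egg coat protein ZP1, at 87.45, 79.4, 577 and 118 RPM in females and at 5.90, 14.2, 39.4 and 14.8 RPM in males. ZPD was also higher in females, at 9.99 to 19.1 RPM against 0 to 2.85 RPM in males (log2 3.095, SE 0.63, limma adjusted p = 0.0177). BMP15 was at 0 in all columns and ZP2 in 7 of 8, so the sum mainly follows ZP1 and is not a measure of oocytes. The 5 adrenal markers summed to 400.2 to 1178 RPM in females and 51.2 to 379 RPM in males, and the 5 mesonephros and kidney markers to 373 to 1142 RPM in females and 22.3 to 119 RPM in males. For leukocyte markers (5 genes) the sums were 89.1 to 134 RPM in females and 22.0 to 36.5 RPM in males, most of it C1QA and C1QB. The other markers were low and overlapped between the sexes. PTPRC was at 0 to 3.04 RPM in females and 0 to 2.03 RPM in males, CD3E at 0 to 10.1 and 0 to 9.75 RPM, and CSF1R at 0 to 4.345 and 0 to 1.97 RPM. The 2 red cell globins summed to 4949 to 10665 RPM in females and 1791 to 4590 RPM in males. Sertoli cell markers summed to 988, 1248, 6834 and 1531 RPM in tributyltin, oil, methyltestosterone and untreated females, against 7018 to 11666 RPM in males, most of it AMH in every column. Granulosa markers summed to 211 to 323 RPM in females and 30.45 to 90.3 RPM in males, but did not all follow the sum. CYP19A1 and RSPO1 were above all male values in every female column. FOXL2 (0 to 126 RPM in females, 0 to 25.1 RPM in males) and FST (15.9 to 36.9 and 2.03 to 28.2 RPM) overlapped. WNT4 also overlapped and leaned the other way (log2 -1.05, SE 0.81, limma adjusted p = 0.552).

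Tributyltin was set against sesame oil to ask what the organotin changed in germ cells. No germ cell or meiosis gene passed in either direction (0 of 26 in limma, with 0% of all tested genes called higher and 0% lower). At an unadjusted p under 0.05, 2 genes were higher after tributyltin (KIT and RAD21L1), against 6.12% of all tested genes, and none lower, against 4.56%. No member was called by edgeR or DESeq2 on the tags of 7 columns either. KIT was at 10.3 and 57.1 RPM in tributyltin females and males, against 3.18 and 14.2 RPM in oil females and males (log2 1.68, SE 0.60, limma adjusted p = 0.360). Untreated females and males had 13.9 and 36.9 RPM, and the oil column was the lowest of each sex. The oil female value was 1 tag, under the floor, and the female ratio of tributyltin to oil was 3.24 (0.321 to 160). RAD21L1 had 2 and 4 tags in tributyltin females and males, against no tag in either oil column, and the female value was under the floor (limma adjusted p = 0.294).

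Within a sex there was 1 column per condition, and no test of the substance. In males the ratio of tributyltin to oil had an interval above 1 for 6 of 29 genes with a tag, against 10.5% of all genes, and below 1 for none, against 7.53%. The 6 were TDRD3, KIT, SMC1B, HORMAD1, ADAD1 and MND1, from each role. TDRD3, a Tudor protein that is also active outside the germ line, was at 39.4 RPM (24.0 to 60.8) in tributyltin males and 10.15 RPM (3.30 to 23.7) in oil males. For KIT the male ratio was 4.02 (1.72 to 10.9), with a p of 0.000351 in the authors' deposited table. That p is from a test that is not stated and compares 2 columns without a replicate. HORMAD1 was at 78.7 RPM in tributyltin males and 42.6 RPM in oil males, but at 87.5 RPM in untreated males. SMC1B was at 108 RPM in tributyltin males, 50.7 RPM in oil males and 55.3 RPM in untreated males.

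In females no gene had an interval above 1 among 27 with a tag, against 6.87% of all genes, and 2 had one below 1 (STRA8 and ADAD1), against 7.79%. STRA8 was at 7.72 RPM (1.59 to 22.5) in tributyltin females and 41.3 RPM (22.0 to 70.6) in oil females, a ratio of 0.187 (0.0342 to 0.680) on 3 and 13 tags. The authors' deposited table gives this pair a p of 0.00331. Untreated and methyltestosterone females had 16.1 and 13.6 RPM, and these lie between the other 2 female values. SYCP1 was at 51.4 RPM in tributyltin females and 47.6 RPM in oil females, and the interval of their ratio (0.525 to 2.27) leaves room for a change of over 1.5 times either way. SYCP3, MSH4 and HORMAD1 had ratios of 0.706 (0.432 to 1.15), 0.601 (0.335 to 1.06) and 0.704 (0.449 to 1.10) in females. For these 3 genes the values after tributyltin were below those after oil, by less than counting error.

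**Figure D5:**
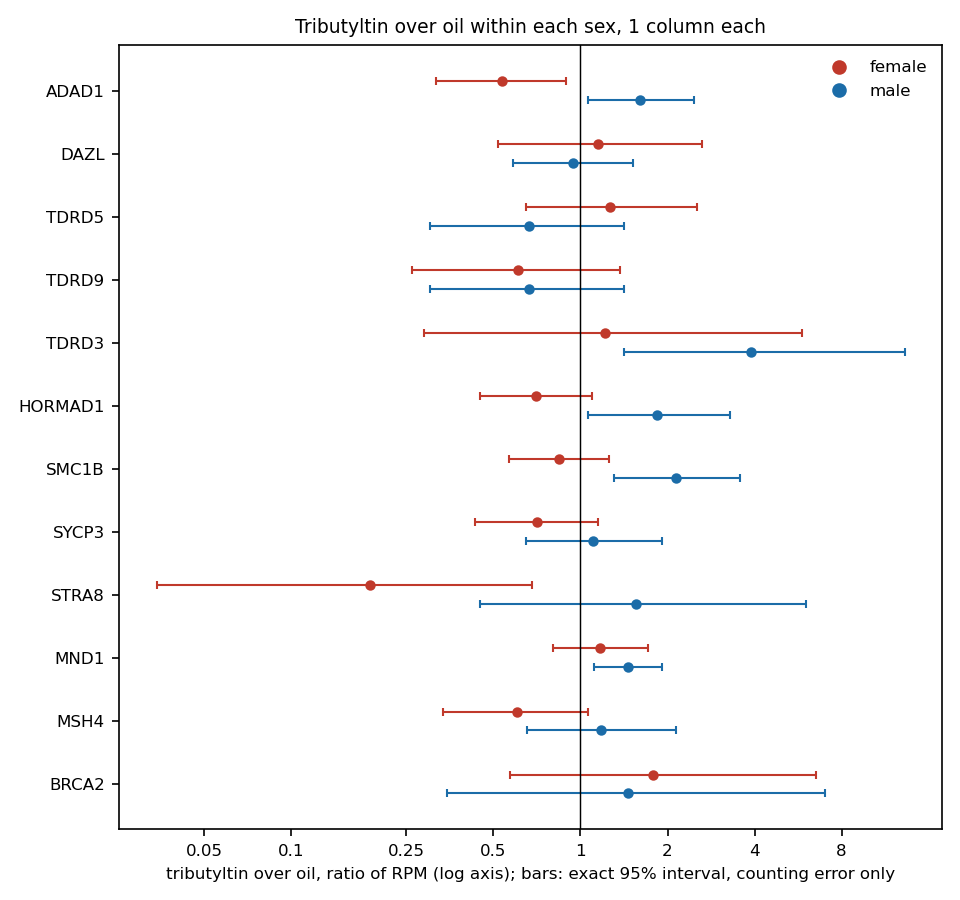
Ratio of RPM in the tributyltin column to RPM in the oil column on a log axis, females in red above males in blue, with exact 95% intervals for the 12 genes with at least 10 tags over the pair in each sex. ADAD1 lies at 0.533 in females and 1.61 in males, and STRA8 at 0.187 in females.

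Methyltestosterone was set against no substance, in the deep columns. No germ cell or meiosis gene passed (0 of 26 in limma, with 0.226% of all tested genes called higher and 0.119% lower). None had an unadjusted p under 0.05 either, against 5.94% of all tested genes higher and 3.28% lower. edgeR and DESeq2 on 7 columns leave out untreated females and keep 1 untreated column, so they were not used as a check here. The smallest adjusted p was that of SYCP3, at 38.4 and 41.8 RPM in methyltestosterone females and males, against 71.7 and 56.8 RPM in untreated females and males (log2 -0.66, SE 0.37, limma adjusted p = 0.688). SMC1B was at 107 and 96.6 RPM after methyltestosterone and 77.8 and 55.3 RPM in untreated gonads (log2 0.63, SE 0.39, limma adjusted p = 0.743). Sertoli markers summed to 6834 RPM in methyltestosterone females, against 1531 RPM in untreated females. Nearly all of this was AMH, at 6774 RPM against 1486 RPM. DMRT1 (31.1 RPM against 9.56 RPM), CLDN11 (9.19 RPM against 2.61 RPM) and HEMGN (5.39 RPM against 1.74 RPM) were also higher. SOX9 went the other way, at 13.6 RPM in methyltestosterone females and 30.8 RPM in untreated females. Ovarian lists were higher as well: granulosa markers summed to 323 RPM against 227 RPM, and the oocyte list to 590 RPM against 129 RPM. Most of the oocyte sum was ZP1, at 577 RPM against 118 RPM. CYP19A1 (97.3 RPM against 28.7 RPM), RSPO1 (53.6 RPM against 28.7 RPM) and WNT4 (37.1 RPM against 7.39 RPM) were higher. FOXL2 (117 RPM against 126 RPM) and FST (18.4 RPM against 36.9 RPM) were lower. In the same columns SYCP1 was at 23.5 RPM (18.4 to 29.4), against 13.0 RPM (8.79 to 18.6).

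Within each sex the deep columns gave narrower intervals. In females the interval of the ratio of methyltestosterone to untreated was above 1 for 5 of 31 genes with a tag, against 21.7% of all genes, and below 1 for 4, against 17.5%. The 5 were TDRD9, SYCP1, SMC1B, MSH4 and HORMAD1, and the 4 were TDRD5, SYCP3, MND1 and BRCA2. HORMAD1 had a ratio of 1.33 (1.16 to 1.54) and SYCP3 a ratio of 0.535 (0.420 to 0.681), so axis genes went both ways. In males it was above 1 for 4 of 31 (DAZL, TDRD7, SMC1B and MND1), against 20.5% of all genes, and below 1 for 4 (NANOG, LIN28B, ADAD1 and SYCP3), against 13.4%. DAZL had a male ratio of 1.50 (1.14 to 2.02) and LIN28B one of 0.546 (0.374 to 0.806). These shares were at or below those of all genes, and such intervals leave out the spread between pools.

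The oil and tributyltin columns also stood apart from the other 4 in some genes, where the substance and this set of columns cannot be told apart. Of the 26 tested genes 2 had all 4 oil and tributyltin values above the other 4 (7.69%, against 7.03% of all tested genes), and 1 had all below (3.85%, against 12.5%). MND1 was at 159 to 276 RPM in these columns and at 12.4 to 48.9 RPM in the others. TDRD3 was at 10.15 to 39.4 RPM in the oil and tributyltin columns and 4.78 to 9.30 RPM in the others. TDRD1, a Tudor partner of PIWI proteins, was the 1 lower gene, at 4.06 to 6.35 RPM in the oil and tributyltin columns and 13.5 to 16.5 RPM in the others. The TDRD1 values in these 4 columns rested on 2 or 3 tags each.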

How the data were processed

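Novoalign and the galGal4 build are named in the submitters' processing notes, and the version is not given in the sources used here. The authors deposited RPM per gene in 8 columns, scaled to a common total. The filler 0.05 stands for no tag and was read as 0. Every other value was then within 0.01 tag of a whole tag (100% of values), which gave tag totals. P-values for pairs of columns are the authors' deposited ones, from a test that is not stated. A further 22 columns of the authors' log ratios and p-values were not used.

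limma 3.58.1 in R 4.3.3 (empirical Bayes with a mean trend, 3 residual degrees of freedom, prior 7.39) was fitted to log2(RPM + 1), with Benjamini-Hochberg adjustment over 9280 genes. The deposited values are normalised, so a count test was not the main one. edgeR 4.0.16 and DESeq2 1.42.0 were run on recovered tags of 7 columns, without untreated females, whose tags did not pass as whole in a check that reads the 0.05 as a value. The scripts were tested on simulated tags. A floor is 3 tags of a column, and "at least" folds are against that floor of the 1 column at 0. Ratio intervals are exact binomial ones.

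The genes and lists were chosen with earlier results of these data known. All 34 members were named, and of other lists the called genes and the most abundant markers. RNF17, ALDH1A2, CYP26A1, CYP26B1, BMP15, ZP2 and ZPD were named after their values were seen. So were the markers DMRT1, CLDN11, HEMGN, PTPRC, CD3E, CSF1R, FOXL2, FST and WNT4. A planned motif search in promoters was not run, since no sequences were used here.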

Additional observations from a re-analysis of the deposited data

Results flagged for a closer look

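In 52 groups of 4 columns of 1 sex (26 genes, females and males), 3 held a column far from the other 3 on the log2 scale, and chance gives about 1 in 20 such groups. SYCP1 was at 0 RPM in tributyltin males, with the other male columns at 5.55 to 7.68. The floor of the tributyltin male column, 5.90 RPM, lies within that range. Against oil males, with 3 tags, the interval of the ratio was 0 to 2.35 and included 1. SYCP2 was at 15.4 RPM in tributyltin females, with the others at 24.1 to 25.4. That value was 6 tags, and its ratio to oil females was 0.607 (0.174 to 2.00), which included 1. HORMAD1 was at 42.6 RPM in oil males, with the others at 78.7 to 87.5. There the ratio of tributyltin to oil was 1.85 (1.06 to 3.30).

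ADAD1 and MND1 moved in opposite directions in the sexes, and MSH4 and ADAD1 had opposite sex differences in different conditions. None of these differences between groups was tested, because each value is 1 column. The ratio of tributyltin to oil in ADAD1 was 0.533 (0.315 to 0.888) in females and 1.61 (1.06 to 2.47) in males. The female-to-male ratio of ADAD1 was 0.560 (0.343 to 0.892) after tributyltin, 1.69 (1.06 to 2.70) after oil, 0.745 (0.620 to 0.892) after methyltestosterone and 0.657 (0.526 to 0.819) in untreated gonads, so oil was the condition apart. For MND1 the ratio of methyltestosterone to untreated was 0.452 (0.295 to 0.684) in females and 1.31 (1.01 to 1.71) in males. MSH4 had a female-to-male ratio of 2.11 (1.19 to 3.79) after oil and 0.596 (0.428 to 0.825) in untreated gonads.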

How the results depend on the processing

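The 1 gene called by sex (KIT) was 1 with median-of-ratios scaling (KIT) and 1 in DESeq2 (SYCP1). It became 0 with a pseudocount of 0.5, without the filter, with columns thinned to 314810 tags and in the oil and tributyltin columns alone. It became 2 where only genes averaging 20 RPM or more were tested (KIT, HORMAD1), 2 in edgeR (SYCP1, MND1), 4 with a pseudocount of 5 (KIT, SYCP1, SYCP2, HORMAD1) and 6 in the untreated and methyltestosterone columns alone (these 4, LIN28B and MND1). Leaving out each column gave 0 to 1, the 1 being LIN28B without either oil column. Over all genes these settings gave 0 to 1014 calls by sex, against 553, and the cause was not tested. The member counts for tributyltin and methyltestosterone were 0 in every alternative run that kept both columns of each substance compared. Over all genes those runs gave 0 to 5 calls for tributyltin, against 0. For methyltestosterone they gave 0 to 1106, against 32. Where no gene was called at all, a count of 0 says nothing about the members. The KIT call held in 4 of 18. Of 513 member values under alternatives (all 26 genes by sex, KIT and RAD21L1 for tributyltin, SYCP3 and SMC1B for methyltestosterone) 27 reversed, all by sex and in 9 genes that were not called. Reversed log2 values of females over males were, after thinning, -0.43 in STRA8, 0.32 in TDRD3, -0.10 in TDRD1 and -1.46 in RAD21L1. In the untreated and methyltestosterone columns alone they were -0.32 in MSH4, -0.62 in TEX14 and -0.0041 in TDRD1, and in the oil and tributyltin columns alone 0.33 in TDRD9 and -0.27 in RAD21L1. TDRD9 was at 0.050 in DESeq2 and RAD21L1 at -0.0053 with a pseudocount of 5. With each column left out in turn they ranged from -0.18 to 0.41 in MSH4, -0.12 to 0.23 in RAD21L1, -0.059 to 0.18 in TDRD1, -1.54 to 0.20 in TDRD15, -0.39 to 0.17 in TDRD9, -0.93 to 0.18 in TEX11 and -0.21 to 0.57 in TEX14. No paired analysis was possible because the columns carry no replicate number, and substance is already a term of the fit. The oil and tributyltin floors of 5.90 to 9.53 RPM limit genes with few tags.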
